A study of Mus musculus with 12 samples.

Results

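Aminoacyl-tRNA synthetases were followed at the level of mRNA in mouse B lymphocytes that had been activated and then given DNA damage. The 36 genes were taken by name from a list of the enzymes, 20 that serve the cytosol and 16 that serve mitochondria, the latter carrying names that end in 2. All 36 were found among the 29486 genes of the table, and all 36 were also among the 14966 genes kept after requiring a mean of at least 10 normalised counts over the 3 conditions. The rule for the members uses their names and no measured value.

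The cells were primary splenic B cells of C57BL/6Babr mice, isolated with a commercial B cell kit, and every group had been given LPS (10 μg/ml), a bacterial cell wall component that drives B cells into growth and division. The LPS group received nothing else, for 48 h. The LE group was further treated with etoposide (20 μM, 4 h), which traps topoisomerase II on cut DNA and so leaves double-strand breaks. The LEKU group received KU55933 (10 μM), an inhibitor of the damage-sensing kinase ATM, 47 h into the LPS culture and 1 h before the same etoposide treatment. No group was given KU55933 without etoposide, so that comparing LEKU with LE shows the inhibitor only on top of damage. The labels do not say whether LPS cells stayed in culture for the further 4 h. No Illumina index was used in more than one condition, so index and condition cannot be told apart. PolyA RNA was sequenced from 4 libraries per condition, and the deposited columns sum to between 20739978 and 23935658 in LPS, 22523516 and 30575195 in LE and 20400994 and 25052093 in LEKU.

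The deposited normalised counts hold no spread between replicates. Within each condition the 4 library columns are exact multiples of each other at every gene, so that they carry 1 fitted value per gene and condition together with a library factor. Cars, for the cysteine enzyme of the cytosol, shows this in the deposited columns. Its values were 2848, 3159, 3286 and 2961 in the LPS libraries, 1747, 1958, 2371 and 1898 in the LE libraries and 2945, 3321, 3558 and 3616 in the LEKU libraries. The LE columns lie below all others, but their scatter is that of library size alone. Therefore no p-value could be computed from this table, the differences below are not set against the variation between cultures, and a gene is counted as higher or lower when its condition values differ by more than 1.5-fold (0.58 on the log2 scale). Differences are on the scale of log2(count + 1), and "count" stands for the fitted normalised count of a condition after both kinds of library factor were removed. Counting error, the smallest error these depths allow, ran from 0.0079 for Lars2 to 0.074 for Fars2 in log2 units.

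Each aminoacyl-tRNA synthetase joins one amino acid to the tRNAs that read its codons, using ATP, and so supplies the ribosome with its building blocks. Cytosolic ribosomes and the ribosomes inside mitochondria use separate sets of tRNAs, and for most amino acids separate genes encode the enzyme of each compartment, both in the nucleus. Lymphocytes that leave rest and grow are known to translate heavily. Many cytosolic synthetase genes are textbook targets of ATF4, a transcription factor that acts when amino acids run short or the endoplasmic reticulum is under stress.

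In undamaged LPS-activated cells the transcripts of the cytosolic enzymes were far more abundant than those of the mitochondrial ones. Levels of different genes are compared here per kb of exon, as normalised counts in LPS cells. Exon length was the union over all annotated transcripts of a gene, so comparisons between genes depend on it. The median was 1052 per kb over the 20 cytosolic genes and 138 per kb over the 16 mitochondrial genes. At the top of the cytosolic set stood Vars (valine) with 2907, Gars (glycine) with 2469 and Nars (asparagine) with 2216 per kb. Eprs (glutamate and proline in one protein) with 620.0, Cars with 526 and Farsa with 472 per kb stood at its foot. Farsa encodes the alpha subunit of the phenylalanine enzyme. Eprs had 11224 counts in LPS, and its place rests on an exon length of 18.102 kb. Lars2, the leucine enzyme of mitochondria, was the exception in the other set with 824 per kb, above the next mitochondrial gene Rars2 (arginine) with 346 and Iars2 (isoleucine) with 318. Ears2 (glutamate) with 63.8, Cars2 (cysteine) with 61.3 and Nars2 (asparagine) with 53.1 per kb were the lowest. Many neighbours in these orders lay close together, such as Mars (methionine) with 1328 and Kars (lysine) with 1305 per kb, and without replicate values it cannot be said that they differ. For the same amino acid the cytosolic gene exceeded the mitochondrial one by 1.44-fold for leucine at the least and by 41.7-fold for asparagine at the most.

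**Figure D1:**
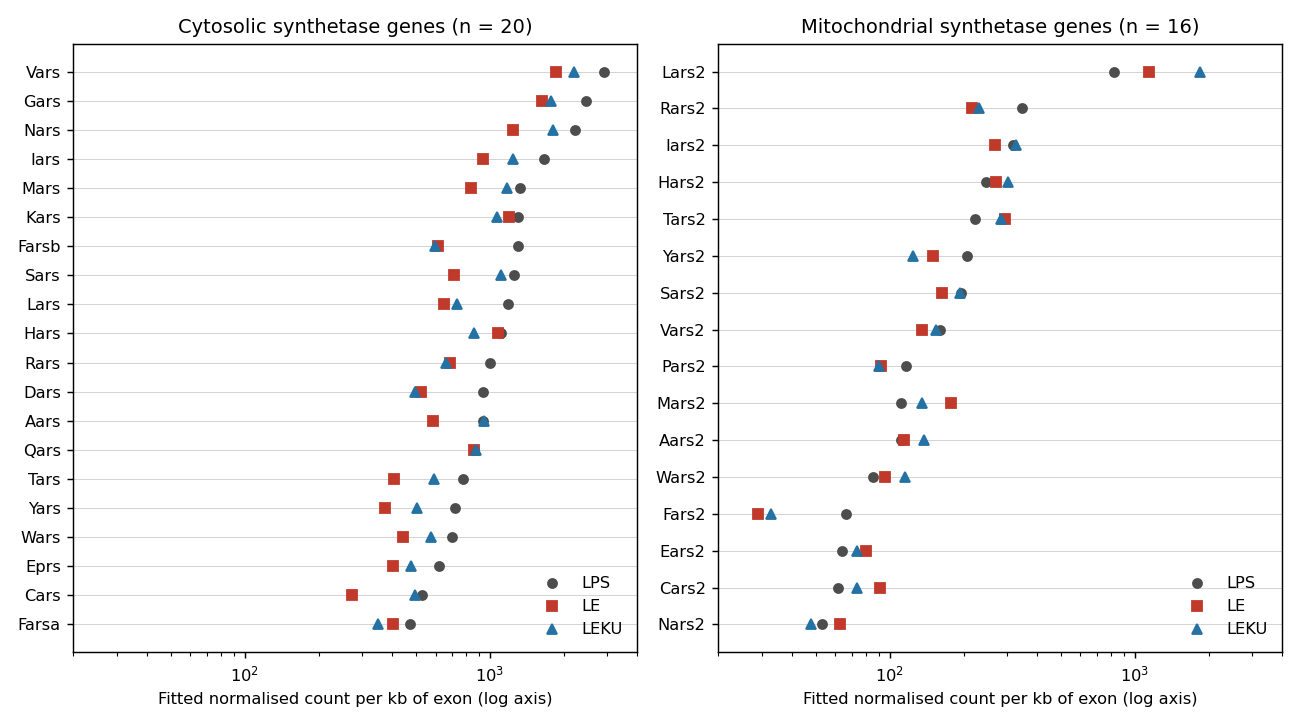
Level of each of the 36 synthetase genes in LPS, LE and LEKU cells, as fitted normalised counts per kb of exon on a log axis, with 1 point per condition and no error bar because the deposited values carry no replicate spread. Most cytosolic genes have their LE value (square) left of the LPS value (circle), and Lars2 stands apart in the mitochondrial panel with 824, 1141 and 1847 per kb in LPS, LE and LEKU.

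Etoposide was the first question, answered by LE against LPS. Of the 20 cytosolic genes 15 were lower in LE by more than 1.5-fold and 0 were higher. Among all kept genes 16.0% were lower and 20.8% higher by this rule. The cytosolic genes are highly expressed, all 20 with means of 1000 counts or more, and of the kept genes at that level, a group set after the values were seen, 18.9% were lower. The median difference over the cytosolic genes was -0.67, against -0.02 over all kept genes, whose middle 50% lay between -0.39 and 0.44. Of the 16 mitochondrial genes 2 were lower and 1 was higher, with a median of 0.08. The medians of both sets thus differed by -0.74 (cytosolic minus mitochondrial), or by -0.70 without Lars2.

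Farsb, the beta subunit of the cytosolic phenylalanine enzyme (GRCm38 chr1:78417975-78488897, minus strand), showed the largest cytosolic difference, also under quantile normalisation (-0.95). Its counts were 3400 in LPS, 1616 in LE and 1567 in LEKU, so that LE lay 2.10-fold below LPS (log2 -1.07). Its partner Farsa, with which it forms a single enzyme, had 2141, 1824 and 1588 counts and a difference between LE and LPS of only -0.23, which turned to 0.09 with the columns used as deposited. Both subunits are needed for the enzyme, yet their transcripts differed in the size of the etoposide difference. Exons of Farsb share 9.47% of their bases with Sgpp2 on the opposite strand, and although the library kit was a stranded one, whether reads were counted by strand is not given in the sources used here.

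Cars, Tars and Yars followed Farsb closely. Cars (chr7:143557230-143600090, minus strand) had 3461 counts in LPS and 1805 in LE, a 1.92-fold lower value (-0.94). Tars (threonine; chr15:11382301-11399665, minus strand) had 4597 and 2402, and Yars (tyrosine) had 4281 and 2232, both also at -0.94. For these 4 genes LE thus lay 1.91-fold to 2.10-fold below LPS. Lars (leucine) at -0.87, Dars (aspartate) at -0.85, Iars (isoleucine) at -0.84, Nars at -0.83 and Sars (serine) at -0.81 came next. Aars (alanine) at -0.67, Wars (tryptophan) and Mars at -0.66, Vars at -0.64, Eprs at -0.63 and Gars at -0.60 made up the rest of the 15 lower genes. For Gars and Eprs the margin over the 1.5-fold limit was small.

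The remaining 5 cytosolic genes were within 1.5-fold. Rars (arginine), just inside the limit, had 3219 counts in LPS and 2227 in LE (-0.53). Kars had 5827 and 5366 (-0.12), Hars (histidine) had 2707 and 2635 (-0.04), and Qars (glutamine; chr9:108507706-108515941, plus strand) had 5682 and 5656 (-0.01). Qars was therefore nearly level, and the signs of these last 3 small differences and that of Farsa turned under at least 1 other scaling. Kars and Gars also serve mitochondria, since 1 gene makes both forms of each enzyme, and the counts do not separate the forms.

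All 20 cytosolic differences were below 0, and 19 were with TMM factors, 18 with library totals, 17 with quantile normalisation and 16 with the columns as deposited. The number past 1.5-fold depended more on the scaling, with 9 of 20 lower under library totals, 7 under quantile normalisation and 4 with the deposited columns, in place of 15. Library totals and the deposited columns move all genes together, and the median of all kept genes was 0.12 higher with the former and 0.32 higher with the latter. For LE against LPS, 3110 kept genes were higher and 2391 lower here, against 2495 and 3139 under quantile normalisation, 3573 and 1804 with library totals and 4797 and 1112 with the deposited columns. The difference between the compartment medians is hardly touched by a common shift, and it was -0.58 under quantile normalisation.

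**Figure D2:**
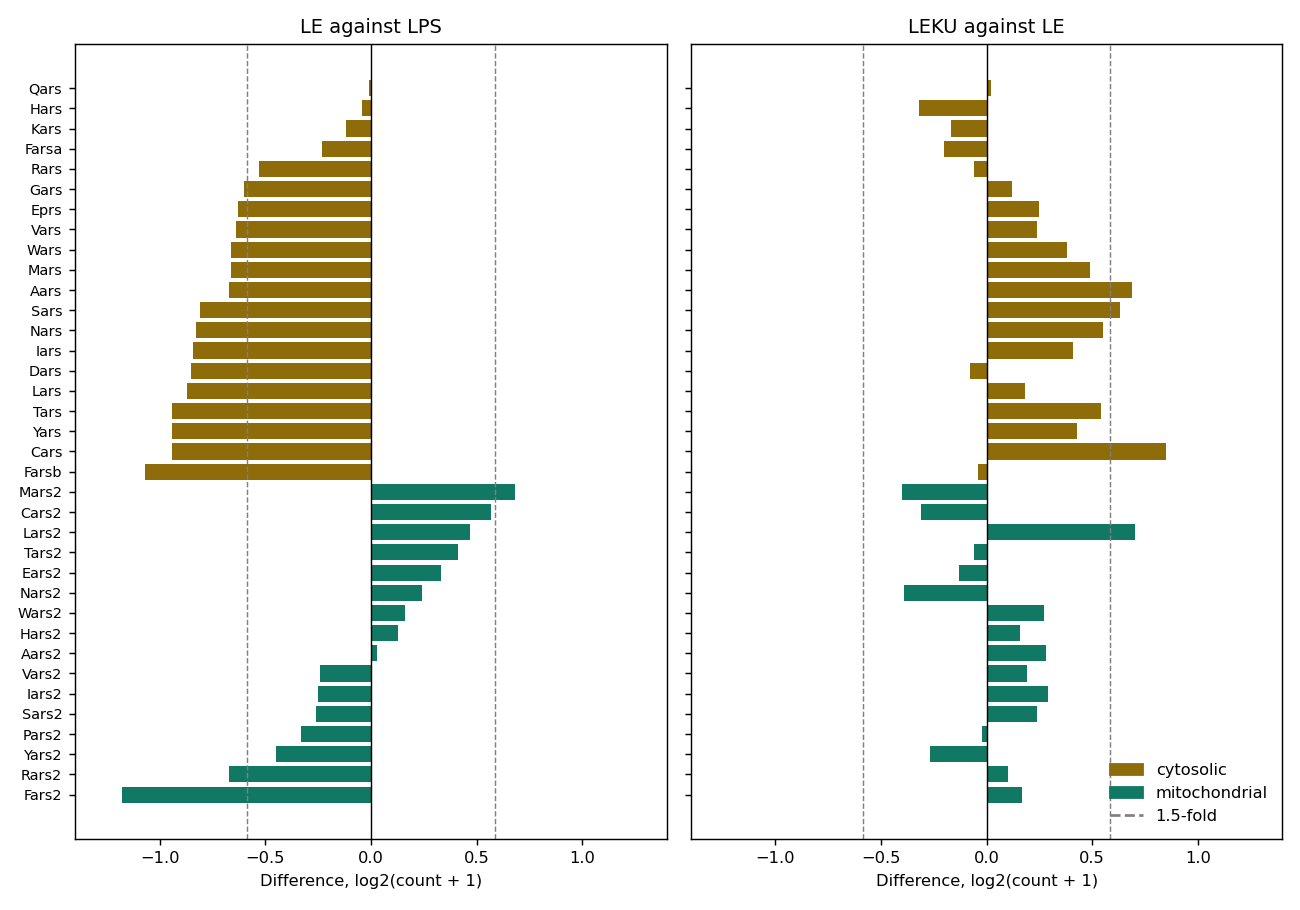
Difference of each synthetase gene for LE against LPS (left) and LEKU against LE (right), on the log2(count + 1) scale, with 1 bar per gene, 1.5-fold marked by dashed lines and no error bars for want of replicate values. On the left the cytosolic bars run from -0.01 for Qars to -1.07 for Farsb, and the mitochondrial bars lie on both sides of 0, from 0.68 for Mars2 to -1.18 for Fars2.

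Among mitochondrial enzymes, Mars2 (methionine; chr1:55237177-55248470, plus strand) was higher in LE, with 1256 counts in LPS, 2008 in LE and 1522 in LEKU (0.68). Mitochondria start their proteins with a formylated methionine, and Mars2 is the enzyme that loads methionine, not yet formylated, on their tRNA. Cars2 (0.57) and Lars2 (0.47) were the next highest, with Cars2 just inside the limit at 1.48-fold. Fars2, the single-chain phenylalanine enzyme (chr13:36117412-36726280, plus strand), lay lowest of all 36 genes, with 381 counts in LPS, 167 in LE and 189 in LEKU (-1.18, 2.27-fold lower). Rars2 (chr4:34614957-34660167, plus strand) was the other lower gene, with 958, 601 and 643 counts (-0.67). Yars2 (tyrosine) followed at -0.45. The mitochondrial set was thus spread on both sides of 0, with 9 genes above and 7 below it, as also with TMM factors, quantile normalisation and library totals, and 12 above and 4 below it with the deposited columns. Fars2 had the lowest count averaged over the conditions (246) of the 16 genes, and 10.7% of its exon bases overlap Lyrm4 and Nrn1 on the other strand.

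The same amino acid could be followed in both compartments in 17 pairs, with Eprs paired with both Ears2 and Pars2 and Fars2 paired with both cytosolic subunits. In LE against LPS the cytosolic difference was below the mitochondrial one in 14 of 17 pairs, with a median gap of -0.59. The gap was widest for cysteine at -1.51 (Cars -0.94, Cars2 0.57), threonine at -1.35 (Tars -0.94, Tars2 0.41) and methionine at -1.34 (Mars -0.66, Mars2 0.68). In these 3 pairs the transcripts for the separate compartments differed in opposite directions. It went the other way for Farsa with Fars2 (0.95), Rars with Rars2 (0.14) and Farsb with Fars2 (0.11). These 3 pairs concern arginine and phenylalanine alone; of their members Farsb, Fars2 and Rars2 passed 1.5-fold, and Rars and Farsa did not.

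**Figure D3:**
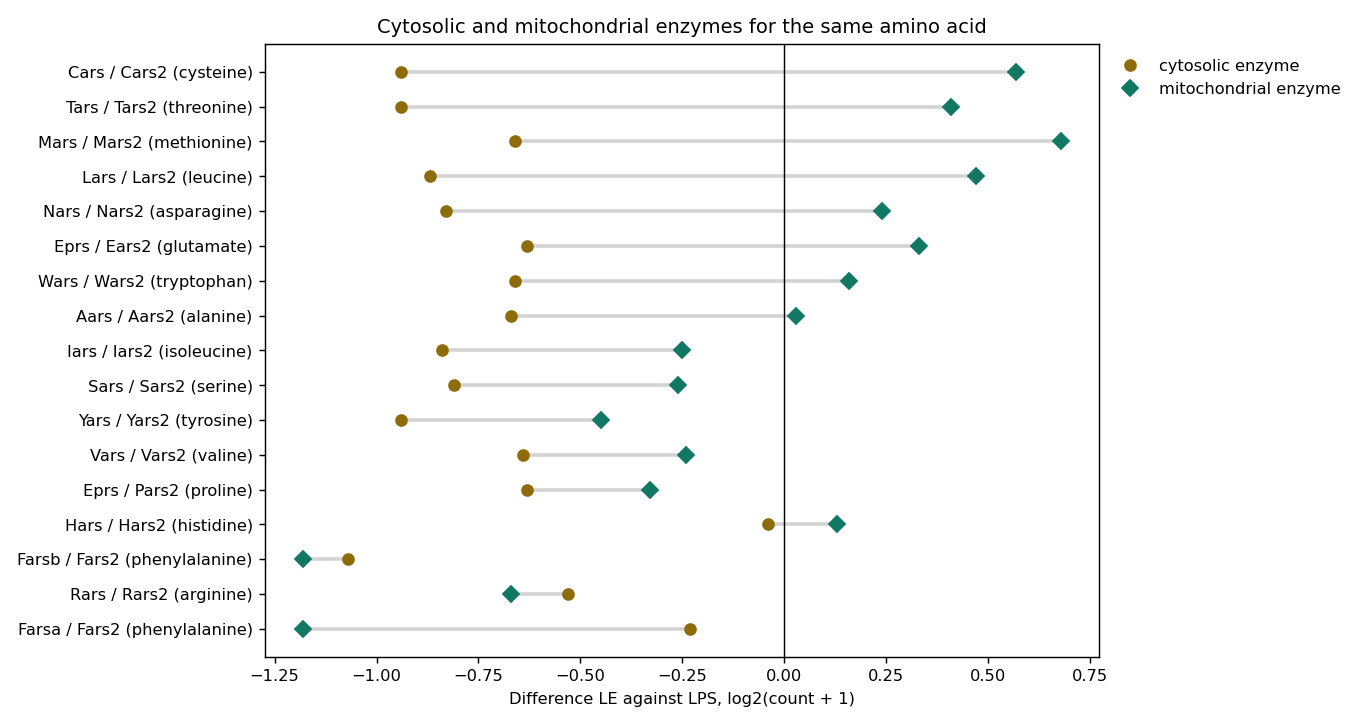
Difference for LE against LPS, on the log2(count + 1) scale, of the cytosolic (circle) and mitochondrial (diamond) enzyme for the same amino acid, in 17 pairs ordered by the gap between them. The gap runs from -1.51 for cysteine at the top to 0.95 for Farsa with Fars2 at the bottom, and no error bars are drawn because the values carry no replicate spread.

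In mammalian cells 8 of the cytosolic enzymes (Eprs, Iars, Lars, Mars, Qars, Rars, Kars and Dars) sit in one large multisynthetase complex, and the other 12 genes encode enzymes outside it. In the complex 5 of 8 were lower in LE, with a median of -0.64, and outside it 10 of 12 were, with a median of -0.74. Beside these counts and those by class below, 16.0% of all kept genes were lower. Among kept genes with means of 1000 counts or more 18.9% were. The complex is held together by scaffold proteins that bind no amino acid. Their genes Aimp1 (1737, 1676 and 1972 counts in LPS, LE and LEKU), Aimp2 (461, 341 and 282) and Eef1e1 (931, 933 and 795) were all within 1.5-fold in LE against LPS, at -0.05, -0.44 and 0.00. By the fold of the catalytic domain, 8 of 10 cytosolic class I genes and 7 of 10 class II genes were lower, with medians of -0.66 and -0.74. The 5 genes within 1.5-fold were Qars, Kars and Rars in the complex and Hars and Farsa outside it.

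KU55933 on top of etoposide was examined by LEKU against LE. Here 3 of 20 cytosolic genes were higher by more than 1.5-fold and 0 were lower, with 6.98% of all kept genes higher and 10.7% lower. Of the kept genes with means of 1000 counts or more, 4.39% were higher. The cytosolic median was 0.25 and the mitochondrial one 0.13, against -0.04 over all kept genes with their middle 50% between -0.29 and 0.21, and the compartment medians differed by 0.12. The LE libraries stand in both this comparison and the one above, so that the values of a gene in both are not independent of each other and are given side by side only.

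Cars had 1805 counts in LE and 3248 in LEKU, a 1.80-fold higher value (0.85), which left it at -0.09 from LPS, though above it by 0.07 to 0.13 with library totals, quantile normalisation and the deposited columns. Aars (chr8:111033144-111057664, plus strand) had 8677 counts in LPS, 5446 in LE and 8794 in LEKU, and so differed by 0.69 between LEKU and LE and by 0.02 between LEKU and LPS. Sars (chr3:108424865-108445209, minus strand) had 6458, 3679 and 5711 counts (0.63 between LEKU and LE). For these 3 transcripts LEKU thus stood close to LPS in this scaling, though Aars lay 0.41 above LPS under quantile normalisation. Exons of Aars overlap Exosc6 and Gm24103 over 15.1% of their bases, and those of Sars overlap no other gene. Nars (0.55), Tars (0.54) and Mars (0.49) came next and stayed within 1.5-fold.

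Transcripts of other cytosolic enzymes had nearly the same level in LEKU as in LE, or a lower one. Farsb (-0.04), Rars (-0.06), Dars (-0.08), Kars (-0.17), Farsa (-0.20) and Hars (-0.32) had differences below 0, of which that of Rars was 0.01 under quantile normalisation. The cytosolic set thus spread over both directions, from -0.32 to 0.85. Of the 12 genes outside the complex 3 were higher, beside 6.98% of all kept genes, with a median of 0.40. Of the 8 in it 0 were, with a median of 0.10 and Mars and Iars (0.41) at its top. The count of higher genes was 5 of 20 with library totals and 6 of 20 under quantile normalisation, in place of 3. For LEKU against LE, 1045 kept genes were higher and 1607 lower, against 1366 and 1347 under quantile normalisation and 766 and 2118 with the deposited columns.

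Lars2 (chr9:123366927-123462666, plus strand) differed from the rest of the mitochondrial set. Its deposited values were 7518, 8341, 8677 and 7819 in the LPS columns, 12242, 13721, 16618 and 13302 in the LE columns and 18574, 20946, 22440 and 22809 in the LEKU columns. The 3 conditions do not overlap in these columns, whose scatter is again that of library size. After scaling it had 9139 counts in LPS, 12651 in LE and 20485 in LEKU, 1.38-fold higher in LE than in LPS, 1.62-fold higher in LEKU than in LE and 2.24-fold higher in LEKU than in LPS. Of the 16 mitochondrial genes 6.25% were higher by 1.5-fold in LEKU against LE and 0 lower, beside 6.98% and 10.7% of all kept genes. This share of higher genes was close to the background, and Lars2 was the only gene in it. Its exons overlap no other annotated gene, and only 0.196% of its 50-base stretches occur in annotated transcripts of another gene. Sequence outside the annotation was not searched, so reads that came from there cannot be told apart. Iars2 (0.29) and Aars2 (0.28) were the next highest, and Cars2 (-0.31), Nars2 (-0.39) and Mars2 (-0.40) the lowest. Exons of Iars2 overlap Rab3gap2 and 2010103J01Rik on the opposite strand over 24.2% of their bases. Its level and differences may therefore include reads of these genes unless strand was used.

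Because Lars2 is so abundant, it weighs on any sum over the mitochondrial set. The 16 genes together had 21876 counts in LPS, 25676 in LE and 33747 in LEKU. Without Lars2 the other 15 had 12737, 13025 and 13263. In this scaling the sum was therefore nearly the same in all 3 conditions outside of Lars2. Per kb of exon the sums of these 15 genes were 2365, 2243 and 2324. With the deposited columns the median of all kept genes is 0.32 higher in LE against LPS, so that such sums depend on the scaling. The 20 cytosolic genes together had 121574 counts in LPS, 78220 in LE and 95296 in LEKU.

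By pairs, the cytosolic difference between LEKU and LE exceeded the mitochondrial one in 12 of 17, with a median gap of 0.27. Cysteine (1.16), asparagine (0.94) and methionine (0.89) had the widest gaps. Leucine went the other way (-0.52), since Lars differed by 0.18 and Lars2 by 0.70, and so did histidine (-0.49) and Farsa with Fars2 (-0.37). Hars and Hars2 lie head to head on opposite strands and share part of their exons, 7.97% of the bases of Hars and 4.56% of those of Hars2, so that reads in the shared part cannot be assigned to either unless strand was used.

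LEKU against LPS compares cells given KU55933 and etoposide with cells given neither. Without a group given KU55933 alone, the inhibitor and the damage cannot be told apart in this comparison. Of the cytosolic genes 4 of 20 were lower, beside 15.4% of all kept genes and 19.7% of those with means of 1000 counts or more, and 0 were higher, beside 19.6% of all kept genes. These were Farsb (-1.12), Dars (chr1:128363707-128417368, minus strand; 4101, 2274 and 2154 counts in LPS, LE and LEKU; -0.93), Lars (-0.69) and Rars (-0.59). The cytosolic share was thus close to the background. At the other end stood Aars and Qars (both 0.02) and Cars. With library totals, the deposited columns and quantile normalisation Aars was at 0.18, 0.24 and 0.41. Qars was then at 0.18, 0.24 and 0.34. The cytosolic median was -0.39 and stayed below 0, between -0.12 and -0.39, under the 4 other scalings, which left 12 to 18 of the 20 genes below 0 in place of 18. With library totals and with the deposited columns the median of all kept genes was 0.16 and 0.23 higher, and 2 of 20 cytosolic genes were lower by 1.5-fold. For LEKU against LPS, 2935 kept genes were higher and 2309 lower, against 3836 and 1568 with library totals and 4288 and 1353 with the deposited columns.

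In the mitochondrial set Lars2 (1.16) was higher in LEKU than in LPS, and Fars2 (-1.01) and Yars2 (chr16:16302965-16309640, plus strand; 648, 473 and 391 counts in LPS, LE and LEKU; -0.73) were lower. These were 1 higher and 2 lower of 16 genes, beside 19.6% higher and 15.4% lower among all kept genes. Wars2 (tryptophan, 0.43) and Tars2 (threonine, 0.35) followed Lars2, and Rars2 (-0.57) was just inside the limit at 1.49-fold. The compartment medians differed by -0.51, or by -0.43 without Lars2. The cytosolic value was the lower one in 15 of 17 pairs, with a median gap of -0.35, and leucine showed the widest gap at -1.85. Farsa with Fars2 (0.58) and Yars with Yars2 (0.21) were the pairs with the opposite order.

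The E-box CACGTG, bound by Myc among others and its own complement, was looked for in the promoters of the synthetase genes. RefSeq promoters (GRCm38.p6, 250 bases before each start) were found for 27 of 36 members, 13 cytosolic and 14 mitochondrial; none was used for Cars, Hars, Lars, Nars, Rars, Vars, Wars, Hars2 and Pars2. It was present before Aars, Farsb and Iars, in 3 of 13 cytosolic and 0 of 14 mitochondrial promoters, and before 6.86% of 27025 genes. As examples, windows of 30 bases around the match are given for Farsb, the cytosolic gene with the largest etoposide difference, and Iars, with the match in capitals and along the strand of the gene.
Farsb, E-box, chr1:78488919-78488948, minus strand: ttagacaggcatCACGTGagacagcccaag
Iars, E-box, chr13:49682049-49682078, plus strand: gaccaatcgccaCACGTGttgtttgtaggt
Between LE and LPS the genes with a match differed by -0.67 (Aars), -1.07 (Farsb) and -0.84 (Iars). Between LEKU and LE they differed by 0.69, -0.04 and 0.41. Cytosolic genes with a searched promoter and no match ran from -0.94 (Tars and Yars) to -0.01 (Qars) between LE and LPS. Their differences between LEKU and LE ran from -0.20 (Farsa) to 0.63 (Sars). A match of letters is a description only, and binding was not measured here.

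Genes with related roles were set beside the synthetases. Of 31 kept genes on a list of other ATF4 targets, 17 were lower and 5 higher in LE than in LPS, beside 16.0% and 20.8% of all kept genes, with a median of -0.69 close to that of the cytosolic synthetases. The 5 higher ones included Cbs (3.26), Sesn2 (2.81), Ddit4 (1.78) and Cebpb (1.71), of which Sesn2 and Ddit4 are also known targets of p53. Asns, the asparagine synthetase that is a classical ATF4 target, had 3378 counts in LPS, 1709 in LE and 3468 in LEKU. In LEKU against LE 21 of 31 were higher and 1 was lower, beside 6.98% and 10.7% of all kept genes, with a median of 0.81, above the cytosolic median of 0.25. Atf5 (2.00), Trib3 (1.87) and Gpt2 (1.75) were the highest and Cbs (-1.61) the lowest. In LEKU against LPS 13 were higher and 1 was lower, beside 19.6% and 15.4% of all kept genes, with a median of 0.45, where the cytosolic synthetases had -0.39. Atf4 itself had 8921 counts in LPS, 5611 in LE and 11214 in LEKU, and Myc had 3738, 1577 and 1734. These 2 genes were looked up after the other values were seen.

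Amino acid transporters bring in the substrates of the synthetases. Of 19 kept transporter genes 5 were lower and 0 higher in LE against LPS, beside 16.0% and 20.8% of all kept genes. Slc38a1 (-0.95), Slc1a4 (-0.91), Slc7a1 and Slc43a2 (both -0.84) were the lowest, and the median was -0.19. In LEKU against LE 7 of 19 were higher and 0 lower, beside 6.98% and 10.7% of all kept genes, with a median of 0.31. Slc6a9 (1.31) and, above it, Slc1a4 (1540 counts in LEKU against 521 in LE) led them. Several of these genes also stand on the ATF4 list. On the mitochondrial side, 13 genes for translation factors of the organelle had 1 higher (Mtif3, an initiation factor, 0.72) and 1 lower (Qrsl1, a subunit of the enzyme that converts glutamate on tRNA to glutamine, -0.75) in LE against LPS, with a median of -0.20. Of 75 kept genes for mitochondrial ribosomal proteins 6 were lower and 2 higher, with a median of -0.11. For these lists and the next, 16.0% of all kept genes were lower and 20.8% higher. Enzymes that mature tRNAs before they are charged were 2 higher and 2 lower of 19, with a median of -0.12, led by Tsen54 (1.83) and Pop1 (1.30) above 0 and Tsen34 (-0.95) below it. The medians of the transporters and of these last 3 lists are smaller in size than the 0.32 by which the deposited columns shift all genes, so that their sign depends on the scaling.

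**Figure D4:**
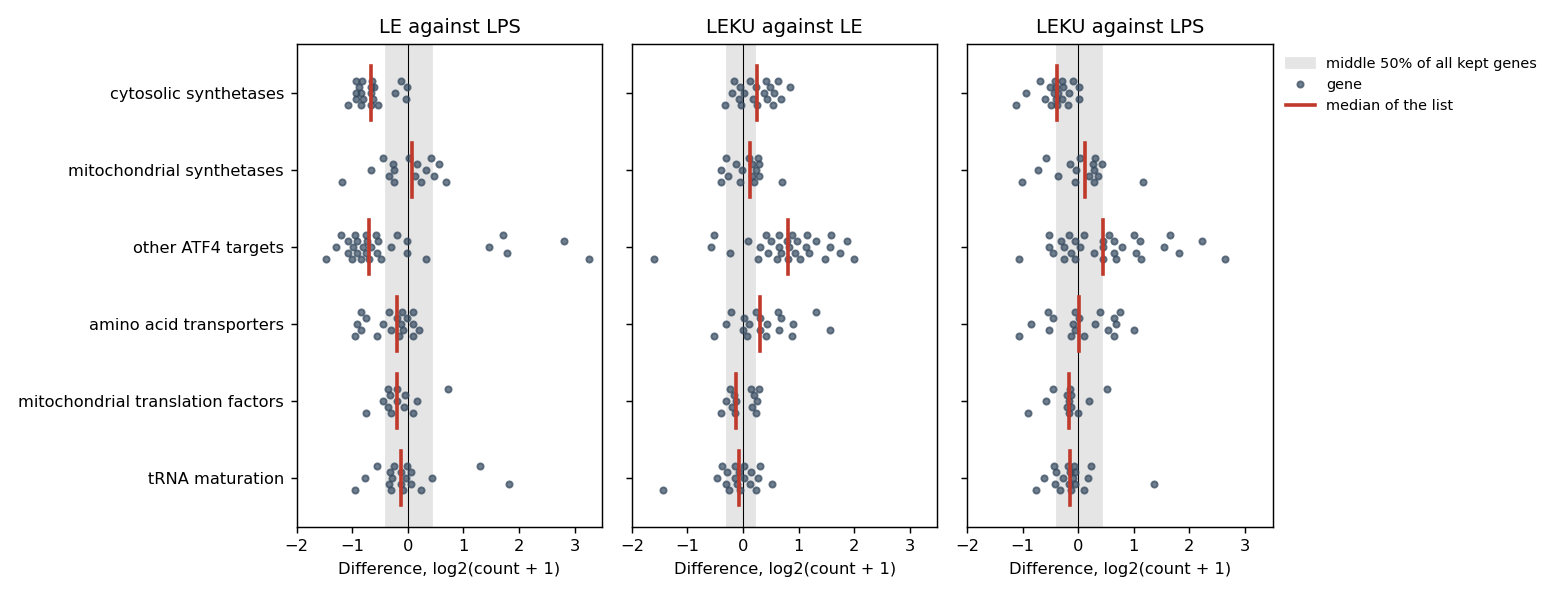
Differences on the log2(count + 1) scale for the 2 sets of synthetases and 4 related gene lists in the 3 comparisons, with 1 point per gene, the median of each list as a line and the middle 50% of all kept genes shaded. For LE against LPS the medians of the cytosolic synthetases (-0.67) and of the other ATF4 targets (-0.69) lie left of the shading, whereas for LEKU against LE the ATF4 targets (0.81) lie further right than the cytosolic synthetases (0.25).

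Markers of B cells were lower in LE than in LPS, as most cytosolic synthetases were. The summed counts of 8 of 8 kept B cell markers were 144722 in LPS, 78120 in LE and 86953 in LEKU. In LE against LPS 7 of 8 were lower by more than 1.5-fold, beside 16.0% of all kept genes. Pax5, Cd22 and Ebf1 were the lowest, at -2.29, -2.48 and -2.24. The marker median was 0.05 in LEKU against LE and -1.17 in LEKU against LPS, where the cytosolic synthetases had 0.25 and -0.39. In bulk RNA fewer cells of a type and less RNA per cell cannot be told apart, and the part of such a shift in the synthetase values was not tested. Markers of other cells were low, with sums over each list of 311 to 442 counts for T cells, 422 to 480.4 for macrophages and 117 to 217 for red blood cells, and 5 of 8 T cell markers stayed under 10 counts in every group.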

How the data were processed

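PolyA RNA of 12 libraries, 4 for each of LPS, LE and LEKU, was prepared by the authors with an Illumina TruSeq kit, a stranded one per the study's methods. Per the labels and the study's methods, reads were trimmed with Trim Galore and cutadapt 1.2.1, aligned with TopHat2 2.0.12 to mouse GRCm38, counted with HTSeq on Ensembl release 78 genes and normalised with DESeq2 1.6.3. The deposited table is a signal, not raw counts: within a condition the columns of the authors are constant multiples (largest deviation 1.1e-14 in log2), as fitted means times library factors would be. DESeq2 can draw fold changes toward 0, and whether the fitted means carry this is not given in the sources used here. Because of these values the planned limma test could not be run, and no whole reads could be recovered for edgeR. The 3 comparison tables deposited by the authors (mean, fold change, standard error, Wald statistic, p-value and adjusted p-value) were not used.

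Library factors within a condition were removed by the column ratios, and conditions were scaled to each other by the median of gene ratios over genes with a mean of at least 10. Differences used a pseudocount of 1, and a call was 1.5-fold. The alternatives were TMM factors (trimming 30% of ratios and 5% of levels), quantile normalisation, library totals, the columns as deposited, no filter or a minimum of 50, pseudocounts of 0.5 and 5, and limits of 1.25-fold (looser) and 2-fold (stricter). Leaving out Lars2 and the group of genes with a mean of at least 1000 were added after the values were seen. The steps were tested on simulated data with few changed genes, all changed upward, and no variation between cultures. That test does not bear on the choice of scaling here, where many genes differed in both directions. Values were computed in Python 3.11.15 with pandas 2.3.3, numpy 2.4.6 and scipy 1.17.1, and plots were drawn with matplotlib 3.10.9. Gene coordinates, exon lengths and overlaps came from GENCODE M21 (GRCm38), and promoters from RefSeq; another motif that was searched is not reported here. Named were the members past 1.5-fold, the 3 highest and 3 lowest of each compartment by difference and by level, the 3 widest gaps between paired enzymes each way, members with a promoter match and up to 4 genes of other lists with the largest differences; other names, such as Asns, were chosen after their values were seen. The members and lists were chosen with earlier results of these data known.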

Additional observations from a re-analysis of the deposited data

How the results depend on the processing

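No paired analysis was possible because the columns of a condition are exact multiples of each other; for the same reason leaving out each library, the replicate block and the count tests of edgeR and DESeq2 were not run. Of 147 values of 15 results under the alternatives, 109 stayed within limits and 38 moved. The limits were 1.5 times for a count and a multiple of the counting error for a median gap. No median gap changed sign, but a shift common to all genes leaves a gap nearly the same by construction. Counts have no sign to change. No member difference past 1.5-fold changed sign under the 4 scalings, whereas 32 of 432 differences of any size did. The number of cytosolic genes lower in LE than LPS was 15, and 9 with library totals, 7 under quantile normalisation, 4 with the deposited columns and 1 at the stricter limit. Cytosolic genes higher in LEKU than LE were 3, and 9 at the looser limit, 0 at the stricter limit, 5 with totals and 6 under quantile normalisation; lower ones were 0, and 1 at the looser limit. Cytosolic genes lower in LEKU than LPS were 4, and 12 at the looser limit, 1 at the stricter limit and 2 with the deposited columns, totals and quantile normalisation. Mitochondrial genes higher in LE than LPS were 1, and 5 at the looser limit and with the deposited columns, 0 at the stricter limit and 2 with TMM factors, totals and quantile normalisation; lower ones were 2, and 4 at the looser limit and 1 at the stricter limit, with the deposited columns and with totals. Between LEKU and LE the mitochondrial count of higher genes was 1, and 0 at the stricter limit and without Lars2; that of lower ones was 0, and 2 at the looser limit. Between LEKU and LPS 1 mitochondrial gene was higher, and 3 at the looser limit, 2 with the deposited columns and totals and 0 without Lars2; 2 were lower, and 4 at the looser limit and 1 at the stricter limit, with the deposited columns and with totals. The compartment gap was -0.58 under quantile normalisation and -0.70 without Lars2 for LE against LPS, 0.18 under quantile normalisation for LEKU against LE, and -0.29 and -0.43 for LEKU against LPS. Changed limits move counts by their construction; the cause of the other moves was not tested. Depth limits Fars2 most, with a counting error of 0.074, but the table used carries no variation between cultures for any gene.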

Other observations

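Selenocysteine is made on its tRNA from serine loaded by Sars, and the 6 genes of that route were also measured. In LE against LPS 2 of 6 were lower, Sephs1 (-0.67) and Eefsec (-0.65), and 0 were higher, beside 16.0% and 20.8% of all kept genes, with a median of -0.48. Pstk, the kinase that acts on the serine of this tRNA, had 189.6 counts in LPS, 260.5 in LE and 364 in LEKU and was higher in LEKU than in LPS (0.94). Eefsec, the elongation factor that delivers the tRNA, had 829, 529 and 461 counts and was lower (-0.85). Of 5 genes with synthetase-like or tRNA-editing domains, Aarsd1 (-0.60) and Dtd1 (-0.66) were lower in LE than in LPS and 0 were higher, beside the same shares of all kept genes. In LEKU against LE, 0 of these genes passed 1.5-fold in either direction.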
